A study of Mus musculus with 6 samples.

Results

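The genes of cholesterol and fatty acid synthesis were examined in RNA of sorted mouse bone marrow HSCs, the hematopoietic stem cells from which all blood lineages arise. The set held 34 genes, chosen by gene name and all found among the 27198 genes of the deposited table, and each passed the filter on low counts. By role, 18 of them encode enzymes on the route from acetyl-CoA to cholesterol, called sterol steps here, 6 encode regulators of the sterol response or a sterol carrier, 3 encode enzymes that make the saturated chain of a fatty acid, and 7 encode the enzymes that elongate or desaturate that chain. The sort kept cells that carried Sca1 and c-Kit and lacked lineage antigens, CD34 and CD135, from the marrow of wild-type male C57BL/6 mice aged 8 to 10 weeks, without irradiation. Control mice (Ctrl) received solvent, and mice on the long-term regimen (l-FA) received ferulic acid, a phenolic antioxidant of plants, intraperitoneally at 50 mg/kg each day for 30 days. Each group had 3 libraries of amplified cDNA, and the number of mice behind a library is not given in the sources used here, so p-values measure the spread between libraries, which may be technical.

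Cells build cholesterol from acetyl-CoA through mevalonate, farnesyl diphosphate, squalene and lanosterol, and they build fatty acids from the same acetyl-CoA through malonyl-CoA. Most genes of both routes are known targets of the SREBP transcription factors, which SCAP carries to the Golgi for activation when sterol is low and which INSIG proteins hold back in the endoplasmic reticulum when sterol is high. Desaturases place double bonds in fatty acyl chains and elongases lengthen them. These steps are among those that shape how unsaturated and how long the chains of membrane lipids are.

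Libraries held 19287735 to 20380610 counts and 22467 to 22954 genes with at least 1 count. Markers of the sorted phenotype were checked first. Their counts of rises and falls stand against 25.5% of all genes tested higher and 25.0% lower (adjusted p under 0.05, edgeR). Of 10 HSC markers tested, 7 rose and 1 (Hlf) fell in l-FA, with Slamf1 at 1.61 to 2.73 CPM (TMM-normalized counts divided by library size and scaled) in Ctrl and 7.58 to 8.52 in l-FA, and Ly6a, which encodes Sca1, at 32.7 to 53.2 and 75.1 to 78.5. Transcripts of the proteins that the sort selects against were abundant, with Cd34 at 1325 to 1361 CPM in Ctrl and 1541 to 1617 in l-FA, and Flt3, which encodes CD135, at 756 to 763 and 1160 to 1196. The 13 markers of granulocytes and monocytes together summed to 23444 to 24269 CPM in Ctrl and 6395 to 6665 in l-FA, with 10 of them lower and 2 higher (Csf1r and Lyz2), and Mpo alone was 18121 to 19103 against 4758 to 5086. The 20 genes of cycling cells summed to 7125 to 7312 CPM in Ctrl and 6628 to 6740 in l-FA, with 12 lower and 1 higher (Ccnb2). The 8 erythroid markers summed to 879 to 941 CPM in Ctrl and 1273 to 1354 in l-FA (4 higher, 1 lower). Most of that sum was Car2, at 786 to 856 CPM in Ctrl and 1171 to 1255 in l-FA. The 6 megakaryocyte markers summed to 209 to 219 and 297 to 304 (3 higher, 0 lower), most of it Itga2b at 171 to 177 and 237 to 242. Of the 3 B cell markers tested 1 was higher, with sums over the list of 55.6 to 55.8 and 63.2 to 65.9 CPM. Of the 6 T and NK cell markers only 2 were tested, Nkg7 and Klrb1c, and the Cd3 genes and Cd8a were not. Both tested genes were lower, with sums over the list of 545 to 567 and 302 to 312 CPM. Here too single genes gave most of each sum. Cd79b was at 52.6 to 53.3 and 60.4 to 62.8 CPM, and Nkg7 was at 541 to 563 and 302 to 311. No marker with a row in the deposited table was at 0 in every library, though only 5 of the 6 T and NK cell markers had a row. In that list 3 markers, and in the B cell list 2, had at most 10 counts in each library. These shifts run alongside every difference between groups given here and their part in the results was not tested, and in such bulk samples fewer cells of a type cannot be told apart from less RNA per cell.

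Members differed widely in level. Genes were set side by side by CPM per kilobase, using the gene lengths behind the deposited FPKM. Those lengths are not transcript lengths for every gene, so the order is approximate. For Tm7sf2 the length was 10220 bases, though its locus runs only from 6112851 to 6118403. Acly was highest at 67.3 (65.4 to 70.0 over the 6 libraries), followed by Elovl5 at 60.1 (56.7 to 61.7), Scd2 at 43.7 (18.1 to 50.4) and Fads2 at 41.5 (39.5 to 44.7). The ranges of Scd2 and Fads2 overlapped, and that of Acly lay above all others. Acly makes cytosolic acetyl-CoA, and the other 3 act on finished acyl chains. Sterol steps filled the middle and lower part of the order, led by Acat2 at 18.6 (15.1 to 20.7) and Ebp at 17.3 (14.9 to 19.2), whose ranges overlapped. Hsd17b7 at 1.3 (0.577 to 2.10), Lss at 1.13 (0.929 to 1.34), Tm7sf2 at 1.06 (0.926 to 1.25) and Scd1 at 0.651 (0.333 to 1.13) closed it, and neighbours there overlapped.

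**Figure D1:**
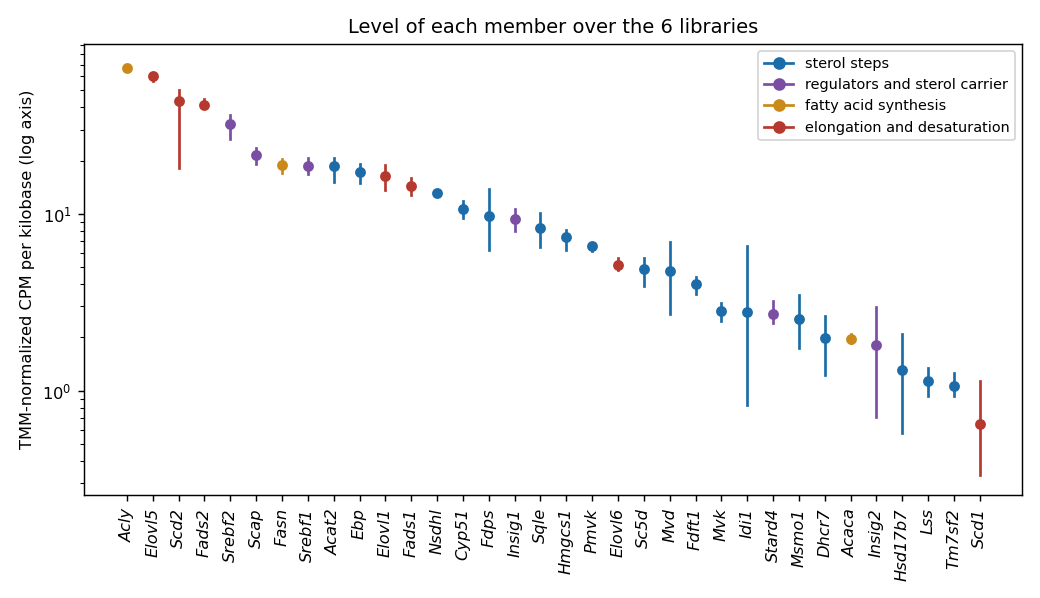
Level of each of the 34 members as TMM-normalized CPM per kilobase on a log axis, ordered by the mean of the 6 libraries. Kilobases are the gene lengths behind the deposited FPKM. Points are means, lines span the lowest to the highest library, and colours give the role of the gene. Acly, Elovl5, Scd2 and Fads2 lead, and Scd1 is last with a mean of 0.651.

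Across the members, changes with FA were small for most genes and large for a few. Differences were tested with edgeR's quasi-likelihood test and Benjamini-Hochberg adjustment over all 16520 genes tested, and a gene is said to rise or fall where the adjusted p was under 0.05. By that rule 15 of the 34 members changed (44.1%), 6 higher and 9 lower, where 50.5% of all genes tested changed, 25.5% higher and 25.0% lower. The share of members that changed was thus close to, and slightly under, the share of all genes. The median log2 fold change was -0.10 over the members and 0.00 over all genes tested. With a change of more than 2-fold added, Scd1 was higher, and Fdps and Hsd17b7 were lower, against 6.68% higher and 5.10% lower among all genes. Fdps and Mvd lay at that limit, with log2 fold changes of -1.06 to -0.97 for Fdps and -1.05 to -0.88 for Mvd when 1 library was left out, so which of them passed 2-fold depended on the library. The 3 Ctrl and 3 l-FA values did not overlap for 21 members, 8 higher and 13 lower, where 60.3% of all genes showed no overlap.

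**Figure D2:**
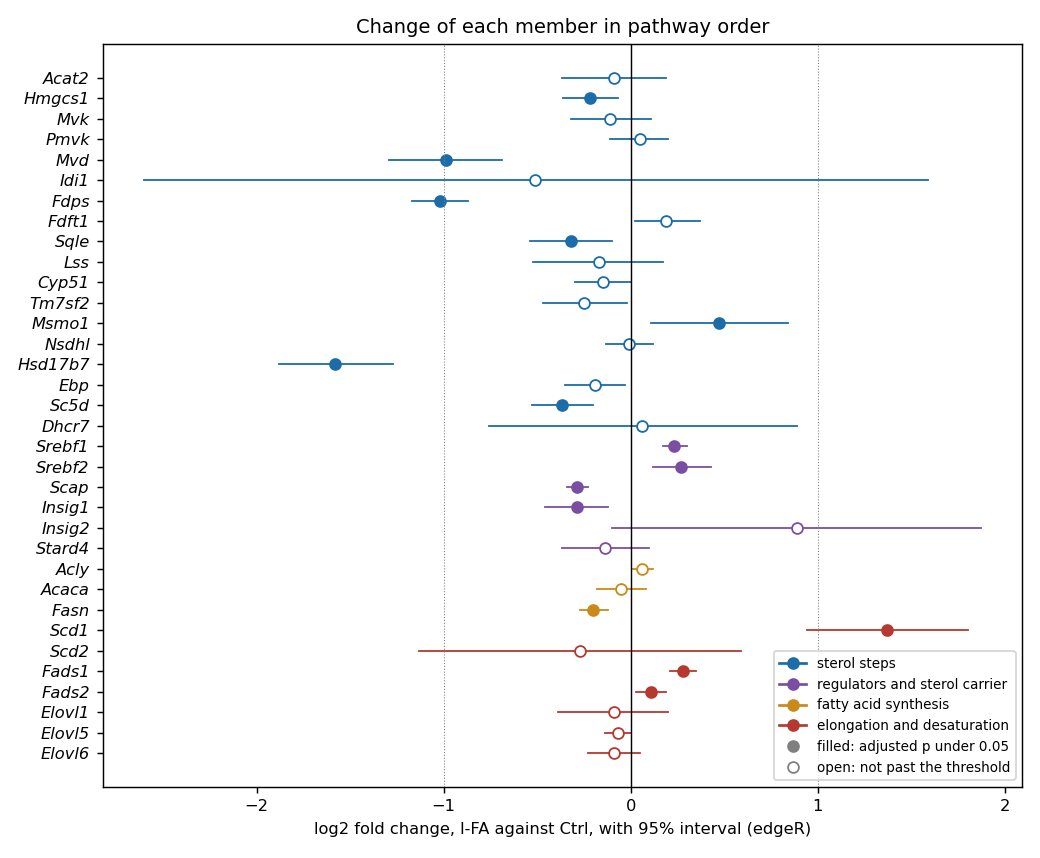
Change of each member, listed by role and in the order of the pathway. Points are log2 fold changes of l-FA against Ctrl from edgeR, lines are 95% intervals, filled points passed an adjusted p of 0.05, and dotted lines mark 2-fold. Hsd17b7 at -1.58, Fdps at -1.02, Mvd at -0.99 and Scd1 at 1.37 stand farthest from 0 among the genes that passed, and Idi1 has the widest interval.

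Among sterol steps, falls outnumbered rises. Of the 18 genes, 6 fell (33.3%), namely Hmgcs1, Mvd, Fdps, Sqle, Hsd17b7 and Sc5d, 1 rose (5.56%), Msmo1, and 11 did not pass. Among all genes tested 25.0% fell and 25.5% rose, so the share of sterol steps that fell was not far above the background, and the 38.9% that changed either way lay under its 50.5%. The median log2 fold change was -0.18, and 14 of the 18 estimates were below 0, against 49.7% of all genes tested. Summed over the 18 genes, the level was 128, 127 and 131 CPM per kilobase in Ctrl and 104, 113 and 110 in l-FA. Every l-FA library thus lay below every Ctrl library, and the mean was 15.3% lower. Much of that drop came from Fdps, Mvd and Hsd17b7, whose highest and lowest libraries were 13.9 and 6.22, 6.93 and 2.72, and 2.10 and 0.577 CPM per kilobase. The falls of Mvd, Fdps and Hsd17b7 were near or beyond 2-fold, while Hmgcs1 fell by 13.9%, Sqle fell by 19.9% and Sc5d fell by 22.5%.

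Hsd17b7, the reductase that completes removal of the sterol methyl groups after lanosterol, changed most. It read 11.6, 10.7 and 10.1 CPM in Ctrl and 4.19, 3.19 and 3.45 in l-FA, from 199 to 223 counts per Ctrl library and 64 to 88 per l-FA library. Each l-FA library lay far below the lowest Ctrl value. The log2 fold change was -1.58 ± 0.13 (SE, n = 3 libraries per group), a fall to 0.335 of the Ctrl level, with an adjusted p of 0.000157 by edgeR. In the deposited coordinates the gene lies on chromosome 1 from 169777104 to 169796810.

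Fdps, which makes the farnesyl diphosphate that feeds sterols, ubiquinone, dolichol and protein prenylation, stood at 69.8, 78.9 and 73.4 CPM in Ctrl and at 38.5, 35.4 and 35.6 in l-FA. The fall was as even across libraries as it was large, with a log2 fold change of -1.02 ± 0.061 and an adjusted p of 5.43e-05 (edgeR). Mvd, the decarboxylase that turns mevalonate diphosphate into isopentenyl diphosphate, read 13.6, 12.3 and 11.5 CPM in Ctrl and 6.91, 5.33 and 6.56 in l-FA. The log2 fold change of Mvd was -0.99 ± 0.12 with an adjusted p of 0.000841 (edgeR), and its groups were likewise apart. Between them, Idi1, the isomerase that supplies the second building block of Fdps, could not be read. Its raw counts were 141, 277 and 913 in Ctrl and 163, 691 and 116 in l-FA, so libraries of one group differed by several fold and the 95% interval of the log2 fold change ran from -2.60 to 1.59. The near copy Idi1-ps1 had 168 to 209 counts in Ctrl and 127 to 134 in l-FA, without the several-fold differences of Idi1. Whether the counting split reads between the genes was not tested.

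The promoters of 27 of the 34 members could be matched to RefSeq windows on GRCm38.p6, and those of the 4 sterol genes shown next were chosen to set genes with large falls (Hsd17b7, Mvd) beside the sterol step that rose (Msmo1) and an early step (Hmgcs1). Each line is the 250 bases before the transcription start, written 5′ to 3′ on the strand of the gene. Capitals mark 2 motifs, CCAAT on either strand (ATTGG where it lies on the other strand), which binds the factor NF-Y, and TCACNCCA on either strand, the core of the sterol regulatory element that SREBPs bind.
Hsd17b7 (chr1:169969206-169969455, minus strand): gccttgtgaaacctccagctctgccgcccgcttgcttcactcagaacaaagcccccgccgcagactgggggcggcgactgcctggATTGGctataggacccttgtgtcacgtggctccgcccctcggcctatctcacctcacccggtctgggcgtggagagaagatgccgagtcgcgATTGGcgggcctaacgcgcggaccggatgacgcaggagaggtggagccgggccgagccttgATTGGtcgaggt
Mvd (chr8:122443423-122443672, minus strand): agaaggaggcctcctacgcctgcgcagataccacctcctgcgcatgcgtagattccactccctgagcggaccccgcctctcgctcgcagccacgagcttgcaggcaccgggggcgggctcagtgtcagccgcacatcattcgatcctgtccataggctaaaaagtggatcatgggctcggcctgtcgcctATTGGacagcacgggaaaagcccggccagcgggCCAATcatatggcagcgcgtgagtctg
Msmo1 (chr8:64733579-64733828, minus strand): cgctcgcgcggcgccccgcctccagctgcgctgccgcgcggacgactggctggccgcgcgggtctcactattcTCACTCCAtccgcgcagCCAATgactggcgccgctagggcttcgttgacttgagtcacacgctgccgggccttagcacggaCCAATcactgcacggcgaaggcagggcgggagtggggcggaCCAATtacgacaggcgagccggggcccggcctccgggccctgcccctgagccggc
Hmgcs1 (chr13:119690101-119690350, plus strand): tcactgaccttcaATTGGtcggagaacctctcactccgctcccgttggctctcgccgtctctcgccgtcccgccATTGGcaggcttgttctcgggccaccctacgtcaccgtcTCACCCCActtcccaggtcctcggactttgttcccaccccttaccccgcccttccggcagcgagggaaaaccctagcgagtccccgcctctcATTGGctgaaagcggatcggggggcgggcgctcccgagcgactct
CCAAT was present in 14 of the 15 sterol genes with a window (93.3%), against 40.5% of 10598 tested genes with one. Hsd17b7, Msmo1 and Hmgcs1 each held 3 copies and Mvd held 2. TCACNCCA was present in 3 of the 27 members (11.1%), Msmo1, Hmgcs1 and Srebf2, against 3.98% of tested genes. Only exact copies were counted, so a window without one may still hold a variant of the element. The GC box, GGGCGG on either strand, was in 14 of the 15 sterol genes (93.3%) and 61.6% of tested genes. In the members' windows no TCACNCCA copy overlapped a CCAAT copy, 1 pair of CCAAT copies on opposite strands overlapped (Fasn), and 1 GC box overlapped a copy of another motif. CCAAT copies were thus present in Hsd17b7 and Mvd, which fell steeply, and in Msmo1, which rose (Fdps had no window), and Hmgcs1, which fell little, had the same motifs as Msmo1.

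Along the first stretch of the route, from acetyl-CoA to farnesyl diphosphate, 3 of 7 genes fell (42.9%, where 25.0% of all genes fell) and none rose. Hmgcs1, which condenses acetoacetyl-CoA into HMG-CoA, was 54.4, 53.6 and 52.3 CPM in Ctrl against 42.3, 49.2 and 46.6 after l-FA, with a log2 fold change of -0.22 ± 0.062 and an adjusted p of 0.0261 (edgeR). Its groups did not overlap, but the call was lost in 4 of 6 fits that left out 1 library. The thiolase Acat2 (log2 fold change -0.09) and the mevalonate kinases Mvk (-0.11) and Pmvk (0.05) did not pass, with adjusted p-values of 0.553, 0.361 and 0.577 by edgeR, and their groups overlapped.

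In the stretch from farnesyl diphosphate to lanosterol, Sqle, the squalene epoxidase that is a control point of the route, fell. It read 74.7, 86.2 and 74.6 CPM in Ctrl and 68.9, 64.1 and 55.7 in l-FA, a log2 fold change of -0.32 ± 0.094 with an adjusted p of 0.0279 (edgeR). Groups did not overlap, and the call was lost in 3 of 6 fits that left out 1 library, with adjusted p-values up to 0.0795 over the alternatives. Fdft1, the squalene synthase that commits farnesyl diphosphate to sterols, had a log2 fold change of 0.19 ± 0.073 with an adjusted p of 0.0670 (edgeR), and its l-FA values of 27.0 to 28.6 CPM lay above the Ctrl values of 22.8 to 26.6. Lss, the cyclase that forms lanosterol, had 17.1, 24.7 and 24.4 CPM in Ctrl around 18.4 to 20.4 in l-FA and did not pass, but without the low Ctrl replicate 1 its log2 fold change went from -0.17 to -0.33 with an adjusted p of 0.0157 (edgeR).

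After lanosterol, 2 of 8 genes fell, the same share as the 25.0% of all genes, 1 rose and 5 did not pass. Msmo1, the oxidase that starts removal of the methyl groups that Hsd17b7 completes, moved the other way from Hsd17b7, at 23.6, 22.2 and 17.2 CPM in Ctrl and 26.4, 26.9 and 34.1 in l-FA. The log2 fold change of Msmo1 was 0.47 ± 0.15 with an adjusted p of 0.0386 (edgeR). Without Ctrl replicate 2 or 3 or l-FA replicate 3 the adjusted p of Msmo1 was 0.0680, 0.0827 and 0.0952 (edgeR), so the rise depended on single libraries. Nsdhl, which acts between them, stood at 38.1 to 41.4 CPM in Ctrl and 38.9 to 41.1 in l-FA, with a 95% interval of the log2 fold change from -0.13 to 0.12.

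Sc5d, the sterol desaturase near the end of the route, fell from 34.4, 35.0 and 32.5 CPM in Ctrl to 27.2, 27.6 and 24.1 in l-FA, a log2 fold change of -0.37 ± 0.070 with an adjusted p of 0.00481 (edgeR). Ebp, the isomerase before it, lay at 62.5 to 68.6 CPM in Ctrl and 53.1 to 61.8 in l-FA and just missed the threshold, with a log2 fold change of -0.19 and an adjusted p of 0.0506 (edgeR). Dhcr7, the last reductase, had 248, 426 and 513 raw counts in Ctrl and 589, 261 and 464 in l-FA. It varied widely within each group, and its interval ran from -0.76 to 0.89. Cyp51, the lanosterol demethylase, and Tm7sf2, a sterol reductase, were lower in each l-FA library than in each Ctrl library, with log2 fold changes of -0.15 and -0.25 and adjusted p-values of 0.0819 and 0.0684 (edgeR). Cyp51 overlaps Akap9, Fdft1 overlaps Ctsb and Tm7sf2 overlaps Vps51 in the deposited coordinates. The sources used here do not say whether strand was kept, so reads of such pairs may have been exchanged. Vps51 rose by 0.09 and Ctsb fell by 0.21 on the log2 scale.

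**Figure D3:**
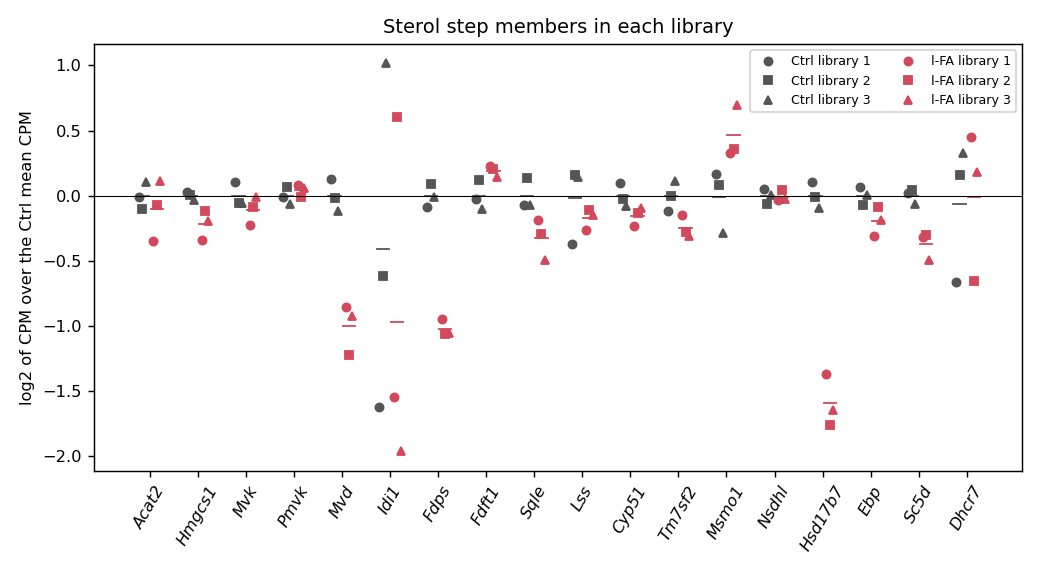
Value of each sterol step in each library, as the log2 of its CPM over the mean CPM of Ctrl, in pathway order from left to right. Grey symbols are Ctrl and red symbols l-FA libraries, with shape giving the library number, and short bars are the mean of each group's log2 values. The l-FA symbols of Mvd, Fdps and Hsd17b7 lie well below all Ctrl symbols, those of Msmo1 lie above, and Idi1 and Dhcr7 are scattered in both groups.

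Regulators of the sterol response split. Srebf2, which encodes the SREBP that chiefly drives sterol genes, rose from 364, 348 and 311 CPM in Ctrl to 386, 423 and 427 in l-FA, a log2 fold change of 0.27 ± 0.065 with an adjusted p of 0.0130 (edgeR). Srebf1, which encodes the SREBP that chiefly drives fatty acid genes, rose from 155, 159 and 159 CPM to 184, 189 and 184, a log2 fold change of 0.23 ± 0.027 with an adjusted p of 0.000601 (edgeR). Both separated the groups fully, and both kept the call under each of the 13 alternatives tried. Srebf1 overlaps Rai1, which did not pass (log2 fold change 0.13, adjusted p = 0.298 by edgeR).

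Scap, the escort of both SREBPs, fell from 210 CPM in each Ctrl library to 170, 176 and 171 in l-FA, a log2 fold change of -0.29 ± 0.025 with an adjusted p of 0.000198 (edgeR). The transcripts of the factors and of their escort thus moved in opposite directions. Insig1, itself a sterol-responsive gene that retains SCAP, fell from 35.7, 36.9 and 33.8 CPM to 28.0, 27.5 and 31.4, a log2 fold change of -0.29 ± 0.070 with an adjusted p of 0.0132 (edgeR). Without l-FA replicate 1 or 2 that adjusted p was 0.0516 or 0.0504 (edgeR), just outside the threshold. Insig2, the second retention protein, read 11.5, 11.8 and 5.37 CPM in Ctrl and 22.6, 9.42 and 21 in l-FA. One library of each group lay far below its partners and the groups overlapped, so a log2 fold change of 0.89 carried a 95% interval from -0.10 to 1.87 and an adjusted p of 0.117 (edgeR), which became 1.20 and 0.0290 without l-FA replicate 2. Stard4, a soluble sterol carrier, stood at 17.8 to 21.7 CPM in Ctrl and 16.3 to 18.2 in l-FA, and its log2 fold change of -0.14 did not pass (adjusted p = 0.296, edgeR).

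Of the 3 genes that make the saturated chain, 1 fell, where 25.0% of all genes tested fell. Fasn, the synthase that assembles palmitate, fell from 283, 286 and 277 CPM in Ctrl to 249, 253 and 236 in l-FA, a log2 fold change of -0.20 ± 0.031 with an adjusted p of 0.00237 (edgeR), and its groups were apart. Acaca, the carboxylase that makes malonyl-CoA, stood at 42.2, 39.2 and 39.8 CPM in Ctrl and 38.0, 38.1 and 40.9 in l-FA, with overlapping groups and a 95% interval from -0.18 to 0.08. Acly, the most abundant member, was 536, 546 and 538 CPM in Ctrl and 548, 568 and 573 in l-FA, a log2 fold change of 0.06 ± 0.023 that did not pass at an adjusted p of 0.0656 (edgeR). Under scaling to library totals, the scaling of the deposited FPKM, Acly passed at 0.14 with an adjusted p of 0.00157 (edgeR).

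Among the 7 genes of elongation and desaturation, 3 rose (42.9%) and none fell, where 25.5% of all genes tested rose, 25.0% fell and 50.5% changed. All 3 were desaturases, which numbered 4, and none of the 3 elongases passed. Scd1, the stearoyl-CoA desaturase that makes oleate, gave 35, 34 and 46 counts in Ctrl and 130, 90 and 95 in l-FA, or 1.82, 1.82 and 2.31 CPM against 6.19, 4.49 and 4.76. The groups were far apart, and the log2 fold change was 1.37 ± 0.18, a 2.59-fold rise with an adjusted p of 0.00105 (edgeR). Scd1 is also the lowest member by level, far below its close paralog Scd2, which carries most stearoyl-CoA desaturase transcript in these cells, and reads shared between the 2 genes may have been split by the counting.

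Scd2 read 330, 351 and 351 CPM in Ctrl and 362, 363 and 131 in l-FA. Replicates 1 and 2 of l-FA lay just above the Ctrl values and replicate 3 lay far below them, so the log2 fold change of -0.27 had a 95% interval from -1.13 to 0.59, and without that library it was 0.09 with an adjusted p of 0.0917 (edgeR). A library that differed 2-fold or more from its group's other libraries was found for 3 of the 33 members with a mean count of at least 100, Idi1, Insig2 and Scd2 (9.09%), and for 3.35% of the 11434 such genes of the table.

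Fads1, the desaturase that completes arachidonate, rose from 111, 110 and 109 CPM in Ctrl to 136, 135 and 131 in l-FA, a log2 fold change of 0.28 ± 0.028 with an adjusted p of 0.000353 (edgeR). Fads2, the desaturase that starts that route, rose from 144, 143 and 141 CPM to 154, 160 and 148, a log2 fold change of 0.11 ± 0.035 with an adjusted p of 0.0386 (edgeR). Groups were apart for both, but the rise of Fads2 was 7.91% and lost its call in 5 of 6 fits that left out 1 library, where that of Fads1 was 21.6% and lost it in none.

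The elongases stayed near their Ctrl values. Elovl5, which extends polyunsaturated chains, stood at 238, 238 and 239 CPM in Ctrl and 220, 229 and 234 in l-FA, a log2 fold change of -0.07 with a 95% interval from -0.14 to 0.00. Elovl6, which extends palmitate to stearate, stood at 56.1, 62.2 and 58.2 CPM and at 58.6, 53.1 and 53.9, an estimate of -0.09 with an interval from -0.23 to 0.05. Elovl1, which extends saturated very long chains, stood at 72.1, 95.7 and 100 CPM and at 80.6, 89.1 and 81.4, an estimate of -0.09 with an interval from -0.39 to 0.20. Groups overlapped for Elovl1 and Elovl6, while the l-FA values of Elovl5 all lay below those of Ctrl. Elovl1 shares its locus with Cdc20, a gene of dividing cells with 7447 to 8461 counts, and without the low Ctrl replicate 1 Elovl1 passed at -0.23 with an adjusted p of 0.0230 (edgeR).

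**Figure D4:**
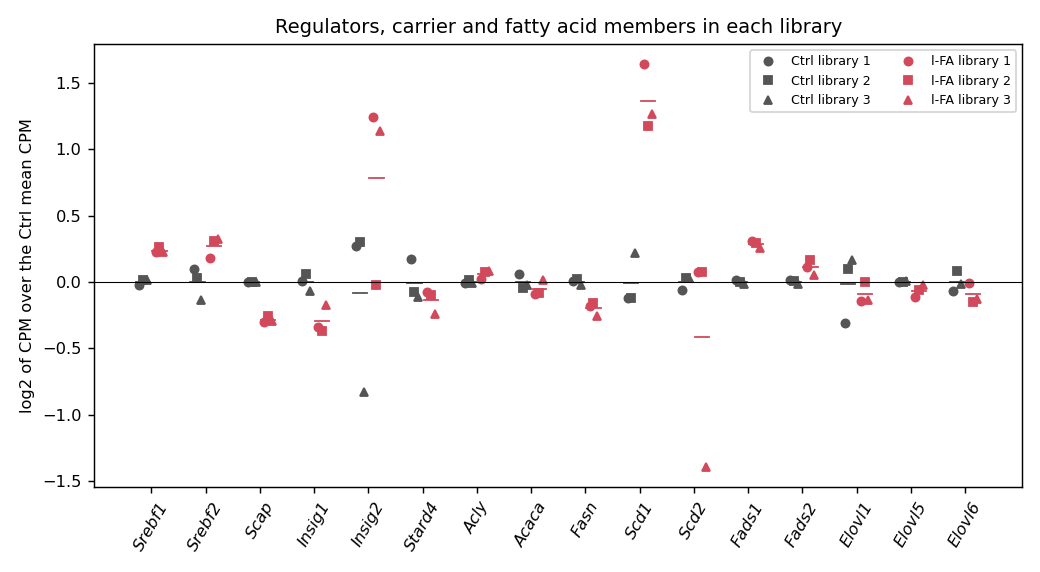
Value of each regulator, carrier and fatty acid gene in each library, as the log2 of its CPM over the mean CPM of Ctrl. Grey symbols are Ctrl and red symbols l-FA libraries, with shape giving the library number, and short bars are the mean of each group's log2 values. Srebf1, Srebf2, Scd1, Fads1 and Fads2 have all l-FA symbols above all Ctrl symbols, Scap, Insig1 and Fasn have them below, and the single low l-FA symbol of Scd2 is replicate 3.

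Set side by side, sterol steps had 6 falls and 1 rise among 18 genes, with a median log2 fold change of -0.18, and elongation and desaturation had 3 rises and no fall among 7, with a median of -0.07. Both roles had a smaller share of changed genes (38.9% and 42.9%) than all genes tested (50.5%). The median of elongation and desaturation rested on 1 library, being 0.09 without l-FA replicate 3, and was 0.02 without Scd2. Within that role, the median was 0.20 over the 4 desaturases and -0.09 over the 3 elongases, so the estimates of the elongases were on the same side of 0 as those of most sterol steps. By summed level, elongation and desaturation stood at 179, 187 and 187 CPM per kilobase in Ctrl and 188, 192 and 156 in l-FA, and without Scd2 at 134, 138 and 139 against 137, 142 and 138. Groups overlapped in both sums, where the sterol sums did not. The difference between the roles was itself not tested. The roles differed in level as well, by the approximate gene lengths used. The summed Ctrl level was 129 over 18 sterol genes and 184 over the 7 of elongation and desaturation. Under scaling to library totals, an alternative chosen after seeing the data, the medians were -0.10 for sterol steps and 0.01 for elongation and desaturation.

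**Figure D5:**
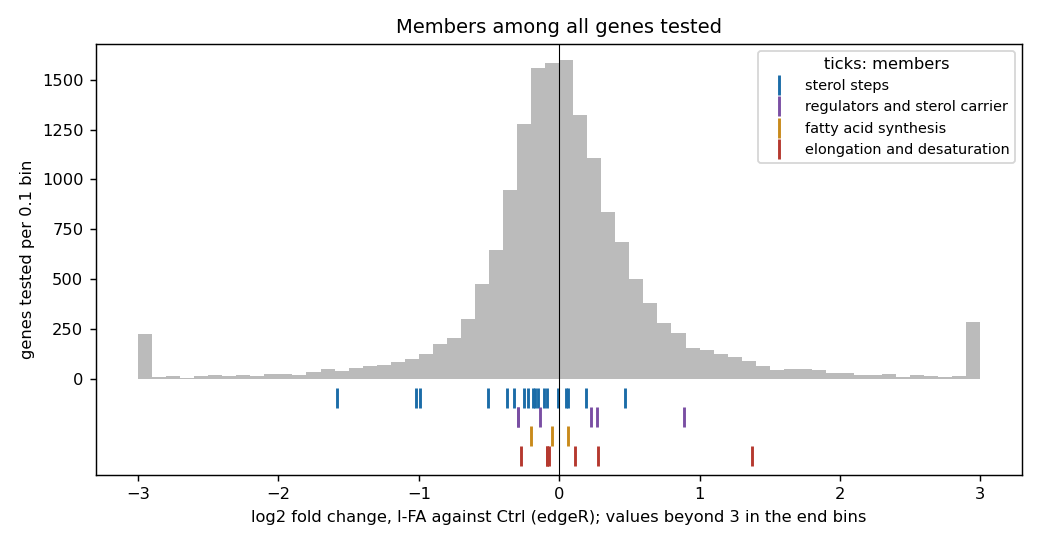
Log2 fold changes of all 16520 genes tested in bins of width 0.1 (grey bars, with 486 genes beyond 3 in either direction placed in the end bins) and of the members (ticks, coloured by role). The sterol steps lie mostly left of 0 with 3 far out, and most other members lie within the central peak, with Scd1 at 1.37 to the right.

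Other genes of the same chemistry, from lists written for this comparison, included further falls and some rises. Of 19 further genes of sterol and isoprenoid synthesis, 8 fell and none rose, with a median of -0.05 (25.0% of all genes fell). The largest was in Coq2, which attaches the isoprenoid tail of ubiquinone and so uses a product of the Fdps branch, at 90.1 to 94.0 CPM in Ctrl and 35.9 to 43.8 in l-FA (log2 fold change -1.19, adjusted p = 6.09e-05 by edgeR). Fntb and Rabggtb, subunits of enzymes that attach isoprenoids to proteins, fell by 0.51 and 0.29 on the log2 scale, and Dhdds, of dolichol synthesis, fell by 0.57 with overlapping groups. Pdss1, of ubiquinone synthesis, fell by 0.27, and Cyb5b, an electron carrier, fell by 0.21.

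Of 22 further genes, regulators of the SREBP pathway and other genes of lipid control, 5 rose (Hilpda, Marchf6, Mylip, Spring1 and Trib1) and 8 fell. Among all genes tested 25.5% rose and 25.0% fell. Mbtps2, the protease that frees SREBPs in the Golgi, fell from 14.1 to 16.8 CPM in Ctrl to 9.11 to 10.8 in l-FA (log2 fold change -0.58), while Spring1, which assists SREBP processing, rose from 10.1 to 14.0 CPM to 17.2 to 22.3 (0.64). Mlx and Mlxip, partners in a glucose-responsive factor, fell by 0.83 and 0.58 on the log2 scale. Trib1, a pseudokinase, rose by 0.83, from 7.48 to 10.1 CPM in Ctrl to 15.1 to 17.3 in l-FA, and Hilpda, a lipid droplet protein, rose by 0.48.

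Of 25 further genes of fatty acid synthesis, elongation and desaturation, 5 rose (Acsl4, Acss2, Fads6, Hacd4 and Slc25a1) and 8 fell, with a median of -0.09, against 25.5% and 25.0% of all genes. Elovl7, an elongase of saturated chains, fell from 8.70 to 12.2 CPM in Ctrl to 2.60 to 3.29 in l-FA (log2 fold change -1.94), so an elongase outside the set fell where the 3 inside it did not pass. Acss2, which makes acetyl-CoA from acetate, rose from 43.7 to 48.9 CPM to 71.4 to 75.3 (0.68), and Hacd4, of the elongation cycle, rose by 0.79 where Hacd2 fell by 0.39. Mcat and Mecr, of mitochondrial fatty acid synthesis, fell by 0.48 and 0.33.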

How the data were processed

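RNA of sorted HSCs was sequenced from amplified cDNA in 3 Ctrl and 3 l-FA libraries, grouped and numbered by their labels. The authors deposited raw whole-number counts per gene and FPKM values, which divide those counts by gene length and library total (within 0.00452% over 13405 genes). The submitters' processing notes name HISAT2, SAMtools 1.3.1, StringTie, edgeR and the build GRCm39, with no roles, and the counting settings are not given in the sources used here. FPKM served only to recover gene lengths. The members, their roles and all gene lists were chosen with earlier results of these data known, so no pattern is independent evidence for them.

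edgeR 4.0.16 (R 4.3.3) tested the counts by its quasi-likelihood test after TMM scaling and filterByExpr, and p-values were adjusted by Benjamini-Hochberg across 16520 of 27198 genes. The standard error is the size of the log2 fold change over the square root of F. The code was tested on simulated data. CPM values use TMM library sizes, whose factors were 0.968 to 0.979 in Ctrl and 1.03 in l-FA. Replicate numbers are shared between groups, but the deviations of same-numbered libraries correlated at 0.0187, -0.0132 and -0.05, so they were not paired. Libraries of a group lay close together (median chi-square over genes 0.897 to 1.09 where counting error gives 0.455, and 8.05 to 8.68 between groups), and each was kept as a replicate.

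Values in each library are given for Sqle, the regulators, the fatty acid genes and any member past the adjusted threshold with a log2 change of at least 0.5. Those of Idi1, Hmgcs1, Sc5d, Msmo1, Lss and Dhcr7 were added after their values were seen. From the lists of related lipid genes, up to 6 genes each with the largest changes among those past the threshold at a mean count of at least 100 were named, and the genes of any direction with 5 or fewer. Alternatives were DESeq2 1.42.0, RLE, upper-quartile and library-total scaling, all genes without a filter, only genes with 10 or more counts per library, replicate number as a block, and fits that left out each library. Promoter sequences are from RefSeq (GRCm38.p6), matched by symbol, and 7 members without a window were Fdps, Fdft1, Sqle, Stard4, Scd1, Scd2 and Fads1. Gene coordinates are those of the table. Reads without molecular identifiers are not independent molecules.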

Additional observations from a re-analysis of the deposited data

How the results depend on the processing

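Of the 15 members that changed, 10 kept the call under each of the 13 alternatives (Mvd, Fdps, Hsd17b7, Sc5d, Srebf1, Srebf2, Scap, Fasn, Scd1 and Fads1). Hmgcs1, Sqle, Msmo1, Insig1 and Fads2 lost it under at least 1. Upper-quartile scaling gave 2 sterol steps higher, a sterol median of -0.16 and Nsdhl at 0.02. Library-total scaling, added after seeing the data, moved the median of all genes by 0.0785 (log2) and gave 2 sterol steps higher, medians of -0.10 for sterol steps and 0.01 for elongation and desaturation, and signs opposite to those reported for Nsdhl (0.07), Acaca (0.03) and Elovl5 (0.01). Hmgcs1 and Sqle lost their calls there, and Acly and Fdft1 gained one. Without a low-count filter 3335 genes passed with over 2-fold change against 1946, and 0 sterol steps were higher. With at least 10 counts in every library 930 genes did, and Nsdhl was at 0.00. DESeq2 lost no member and added Acly and Ebp. The causes were not tested.

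With the replicate block, 7405 genes passed against 8336, 0 sterol steps were higher, and Hmgcs1, Msmo1 and Fads2 lost their calls, while no member gained one. Same-numbered libraries share only a number. With 1 library left out in turn, sterol steps lower ranged from 4 to 6 and higher from 0 to 1, elongation and desaturation genes higher from 2 to 3 and lower from 0 to 1, the sterol median from -0.20 to -0.13 and the elongation and desaturation median from -0.07 to 0.09. Log2 fold changes ranged from -0.04 to 0.02 for Nsdhl, -0.18 to 0.33 for Dhcr7, -1.73 to 0.52 for Idi1, -0.19 to 0.03 for Acat2 and -0.47 to 0.09 for Scd2. Scd1 had only 34 to 130 counts per library.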

Other observations

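Of 29 genes tested that handle sterol once it is made or taken up, 12 rose and 6 fell, with a median log2 fold change of 0.22. Abca1, the exporter that passes cholesterol to lipoprotein, rose from 20.1 to 20.8 CPM in Ctrl to 30.6 to 31.2 in l-FA (log2 fold change 0.60, adjusted p = 0.000167 by edgeR). Osbp and Osbpl1a, sterol transfer proteins, rose by 0.63 and 0.64, with Osbp at 18.0 to 18.9 CPM in Ctrl and 27.4 to 29.4 in l-FA. Tmem97, a sterol-responsive membrane protein, fell from 112 to 114 CPM to 49.9 to 52.5 (log2 fold change -1.14, adjusted p = 4.90e-06), and Scarb1, the receptor of high-density lipoprotein, fell from 263 to 276 CPM to 171 to 178 (-0.62). Lrp8, a lipoprotein receptor, fell by 0.58.

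Genes of triglyceride and phospholipid synthesis changed in both directions, with 9 higher and 11 lower of 31 tested and a median of -0.10. Dgat2, which completes triglyceride, fell from 16.1 to 20.4 CPM in Ctrl to 4.04 to 4.90 in l-FA (log2 fold change -2.07, adjusted p = 5.82e-05 by edgeR). Agpat5, which makes phosphatidate, fell from 138 to 145 CPM to 76.0 to 78.7 (-0.86), and Lpcat4, which acylates lysophospholipid, fell by 0.69. Mboat2, which loads acyl chains onto lysophospholipid, rose from 4.77 to 8.18 CPM to 13.1 to 14.7 (1.23). The phosphatidate phosphatases Lpin1 and Lpin2 rose by 0.68 and 0.89, with uneven l-FA libraries. Lpin1 was at 30.3 to 31.3 CPM in Ctrl and 43.7, 45.7 and 59.8 in l-FA. Lpin2 was at 35.3 to 38.2 CPM in Ctrl and 51.2, 95.5 and 57.2 in l-FA. These lists were written with earlier results of the data known, and the shares are to be read against 25.5% of all genes higher and 25.0% lower.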
